A study of Rattus norvegicus with 9 samples.

Results

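The tumor necrosis factor (TNF) ligand and receptor superfamily was followed in rat dorsal root ganglia (DRGs), the clusters of sensory neuron cell bodies beside the spinal cord. Its members were taken by symbol: Tnf itself and every gene whose symbol starts with Tnfsf (ligands), Tnfrsf (receptors) or Tnfaip (proteins first found as induced by TNF, which are not part of the superfamily by structure). This gave 39 of the 20413 genes listed: 12 ligands, 19 receptors and 8 TNF-induced proteins. RNA-Seq of the ipsilateral L4–6 DRGs on day 10 compared 3 groups of male Sprague Dawley rats bought at 8–10 weeks of age, with 3 libraries from 3 rats in each group. In the chronic post-ischemia pain (CPIP) group, a tight ring around the right ankle stopped the blood flow of the hind paw for 3 h. Sham rats, labelled Con in the repository, had the same anesthesia with a cut ring that did not compress the ankle. The CPIP+EA group had the CPIP procedure and electroacupuncture at 100 Hz for 30 min a day on 10 days, at needles in both hind limbs. No group received electroacupuncture without CPIP, so the values of CPIP+EA rats describe treated CPIP rats only.

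TNF superfamily ligands are mostly membrane-bound trimers that can be shed, and each binds its own receptor or a few related ones. Receptors with a death domain in their cell-internal part can start apoptosis or necroptosis, while the others recruit TRAF adaptors, and both kinds can switch on the transcription factor NF-kB. In sensory ganglia TNF and its receptors are known for sensitizing nociceptors after nerve injury and inflammation, and many other members are known from B cells, T cells and myeloid cells.

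Of the 34 members tested, 0 passed the threshold for a differentially expressed gene (DEG) in any comparison. Levels are FPKM (fragments normalized to transcript length and to library size), a scale per length on which genes can be compared. A DEG needed a limma Benjamini-Hochberg adjusted p under 0.01, taken over all 17187 genes tested, and a change of at least 1.5-fold. Of all genes tested, 0.355% were DEGs between CPIP and Sham, 0% between CPIP+EA and CPIP, and 0.483% between CPIP+EA and Sham, so that a count of 0 among 34 members does not set the family apart from other genes. The lowest adjusted p of a member was 0.145, 0.996 and 0.0508 in these 3 comparisons. The members with the smallest p against Sham were the death-domain receptor Tnfrsf21 and the lipid-binding protein Tnfaip8l3, both higher in CPIP and in CPIP+EA than in Sham. Neither passed the test between CPIP+EA and CPIP, where their intervals span 0.

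With an unadjusted p under 0.05, 3 of the 34 members tested differed between CPIP and Sham (8.82%), beside 8.66% of all genes. Between CPIP+EA and CPIP it was 1 member (2.94%) beside 4.29% of all genes, and between CPIP+EA and Sham 4 members (11.8%) beside 12.2%. The shares of members were thus near those of all genes. Tnfrsf17 is 1 of the first 3 and the single member of the second comparison, and its mean passed the minimum for testing only through its CPIP libraries. Left out, the counts were 2, 0 and 4 of 33 members, a change chosen after the values were seen. For 6 members the CPIP and Sham libraries did not overlap (17.6%) beside 15.9% of all genes, and all 6, which are 5 without Tnfrsf17, were higher in CPIP, beside 7.98% of all genes in that direction (1371 higher and 1357 lower). They did not overlap for 2 members (5.88%) beside 8.23% of genes between CPIP+EA and CPIP, and for 4 (11.8%) beside 16.2% between CPIP+EA and Sham. In each comparison 20 of 34 members had a positive and 14 a negative log2 fold change. The median log2 fold change of the members was 0.076, 0.050 and 0.099 in the order above, beside -0.0064, 0.012 and 0.0014 for all genes tested. The first and second comparisons share the CPIP libraries and the first and the last share the Sham libraries, so these values are not independent of each other. The counts at an unadjusted p under 0.05 were small and moved with single libraries. The first rose to 5 without CPIP replicate 2 or without CPIP+EA replicate 3. The second went to 0 without CPIP replicate 3 and to 2 without Sham replicate 2, CPIP+EA replicate 1 or CPIP+EA replicate 3. The last rose to 7 without CPIP+EA replicate 3, among them Tnfrsf26 and Tnfrsf13c, whose highest library is the one left out. The shares of all genes in these fits are not given here, so the moves are not read as a trait of the members.

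The libraries were DRG tissue by their markers. Summed FPKM of 7 sensory neuron markers lay between 2777 and 3550 in all 9 libraries. All 4 markers of injured neurons were DEGs between CPIP and Sham, with sums of 137 to 150 for Sham, 364 to 449 for CPIP and 382 to 494 for CPIP+EA. Schwann cell markers varied between 4591 and 11744 with overlapping groups, and muscle markers stood at 102 in CPIP replicate 2 against at most 32.0 elsewhere. At an unadjusted p under 0.05, 3 of 4 fibroblast markers were lower in CPIP+EA than in Sham (median log2 fold change of the list -0.54), with overlapping sums of 389 to 821 and 690 to 964. Of 6 macrophage markers, 1 was higher in CPIP (Cx3cr1) and 2 were higher in CPIP+EA (Aif1 and Cx3cr1) than in Sham at that level. The satellite glia marker Glul was lower in CPIP+EA than in Sham. Between CPIP+EA and CPIP at that level, the Schwann cell marker Prx was lower (median log2 fold change of the list -0.53). Gal was higher and Cd2 lower there, and of the satellite glia markers Fabp7 and Glul, 1 was higher and 1 lower. The part of these cell types in the values of members such as Tnfsf15 and Tnfrsf1b was not tested. CPIP+EA replicate 3 stood apart in blood cell markers, which is taken up with the members that peaked there. Without read counts, the counting error behind a level could not be given. In bulk tissue, fewer cells of a type and less RNA per cell cannot be told apart.

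The 39 members covered a wide range of levels. Only 4 had a mean of at least 10 FPKM over the 9 libraries, 16 lay between 1 and 10, 14 between 0.1 and 1, and 5 under 0.1. The last 5 were not tested: the ligands Tnfsf8, Tnfsf18, Tnfsf4 and Tnfsf11 and the receptor Tnfrsf8, whose highest values in any library were 0.18, 0.12, 0.20, 0.26 and 0.14 FPKM. In all, 33 members were above 0 in every library. Tnfrsf21 alone made up 62.9% of the summed mean FPKM of the 19 receptors, and 5.86% of all genes had a higher mean. The superfamily receptor Ngfr, whose symbol the member rule does not take, stood above Tnfrsf21 and is given further below. Tnfsf12 held 62.9% of the ligand sum and Tnfaip1 62.3% of the sum of the TNF-induced proteins.

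**Figure D1:**
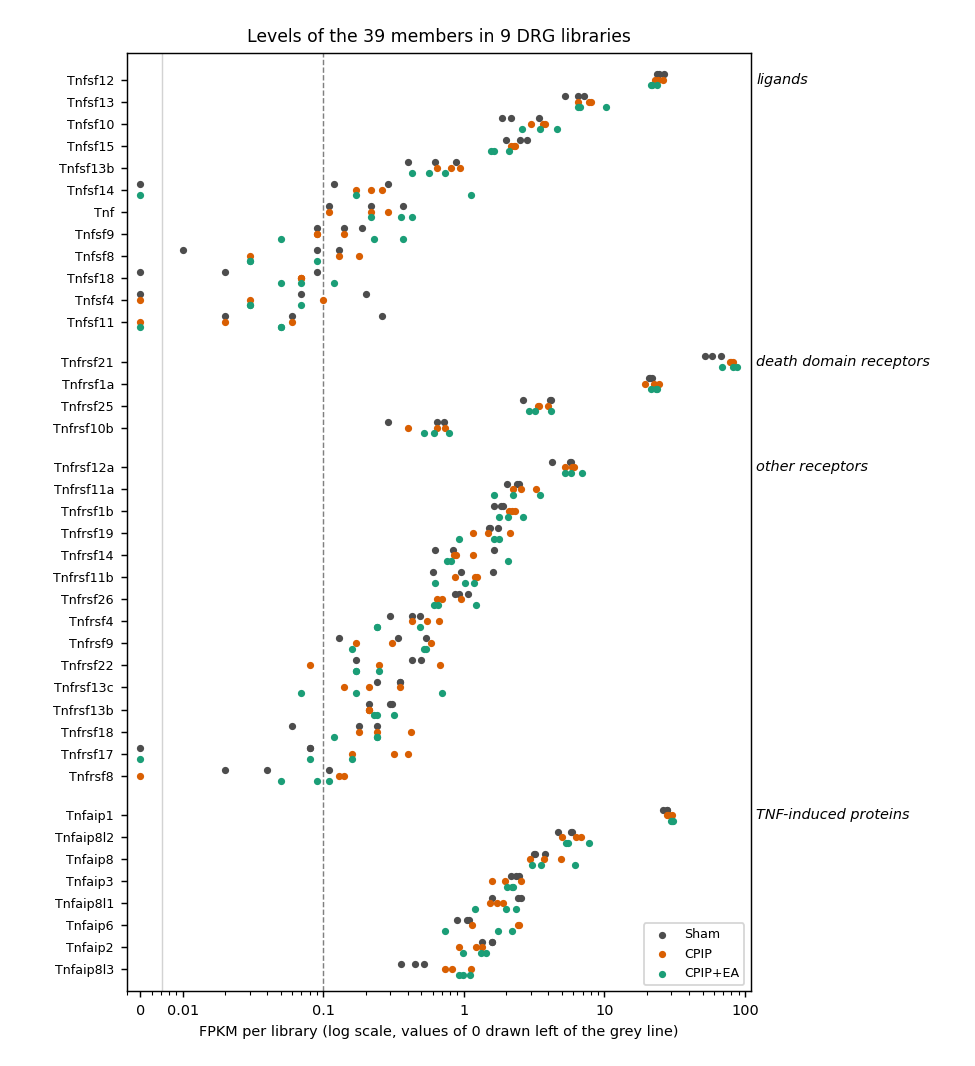
FPKM on a log axis of each of the 39 members in each of the 9 libraries, 1 point per library, colored by group and ordered by mean within ligands, death-domain receptors, other receptors and TNF-induced proteins. Values of 0 are drawn left of the grey line and the dashed line marks the minimum mean of 0.1 FPKM for testing. The groups overlap for most members, and Tnfrsf21 and Tnfaip8l3 are the clearest exceptions.

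Ligands and their known receptors often stood at unlike levels, compared here as mean FPKM over the 9 libraries. Tnf was at 0.259 while its receptors Tnfrsf1a and Tnfrsf1b were at 22.1 and 2.05. Tnfsf12, the cytokine TWEAK, was at 23.9 with its receptor Tnfrsf12a at 5.66. Tnfsf10, the apoptosis ligand TRAIL, was at 3.17 with its death receptor Tnfrsf10b at 0.592. Tnfsf11, the osteoclast factor RANKL, was under the filter while its receptor Tnfrsf11a and its soluble decoy Tnfrsf11b (osteoprotegerin) were at 2.48 and 1.03. In these ganglia the receptors of Tnf and Tnfsf11 therefore had more RNA than the ligands, and the ligands Tnfsf12 and Tnfsf10 more than their receptors.

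Among the ligands, 8 were tested and none was a DEG. Tnf, the founding cytokine of the family, was at 0.11, 0.22 and 0.37 FPKM in the Sham libraries, 0.22, 0.11 and 0.29 in those of CPIP and 0.43, 0.36 and 0.22 in those of CPIP+EA. Values of single libraries are given in the order of replicates 1 to 3 throughout. All 3 groups overlapped. The log2 fold change of Tnf, on the log2(FPKM + 0.5) scale of the fit, was -0.05 between CPIP and Sham (SE 0.17, limma adjusted p = 0.983, 95% interval -0.43 to 0.34). It was 0.24 between CPIP+EA and CPIP (SE 0.17, limma adjusted p = 0.996, 95% interval -0.14 to 0.63) and 0.20 between CPIP+EA and Sham (SE 0.17, limma adjusted p = 0.709, 95% interval -0.19 to 0.58). The last value was 0.072 without Sham replicate 1 and 0.33 without Sham replicate 3, and that between CPIP+EA and CPIP was 0.14 without CPIP replicate 2. At this low level the added 0.5 FPKM understates any change.

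Tnfsf15, an endothelial and immune cytokine that binds the death receptor Tnfrsf25, was the ligand with the smallest p. It stood at 2.80, 1.98 and 2.52 FPKM in the Sham libraries, 2.15, 2.26 and 2.33 in those of CPIP and 1.64, 1.57 and 2.08 in those of CPIP+EA. Each CPIP+EA library was below each CPIP library, while CPIP+EA replicate 3 lay above the lowest Sham library. Against Sham, CPIP+EA had a log2 fold change of -0.37 (SE 0.14, limma adjusted p = 0.310). Its unadjusted p stayed under 0.05 in 5 of the 9 fits that left out a library, and did not without Sham replicate 1 or 3 or CPIP+EA replicate 1 or 2. Against CPIP, the log2 fold change of CPIP+EA was -0.29 (95% interval -0.59 to 0.02), with an unadjusted p under 0.05 without the trend and without Sham replicate 2 or CPIP+EA replicate 3. Its receptor Tnfrsf25 had means of 3.64 ± 0.855, 3.58 ± 0.323 and 3.42 ± 0.651 FPKM (SD, n = 3) in Sham, CPIP and CPIP+EA.

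Tnfsf12, the most abundant ligand, was at 23.7, 24.5 and 26.7 FPKM in the Sham libraries, 24.0, 26.3 and 23.0 in those of CPIP and 21.6, 21.8 and 23.7 in those of CPIP+EA. Its CPIP+EA libraries lay below those of Sham by the narrowest margin, 23.70 against 23.72, and the log2 fold change of -0.16 had a 95% interval of -0.32 to 0.01, with an unadjusted p under 0.05 in 5 alternatives, among them the fits without Sham replicate 1 or CPIP+EA replicate 3. Tnfsf10 was at 1.86, 2.15 and 3.41 FPKM in the Sham libraries, 3.63, 3.00 and 3.76 in those of CPIP and 3.50, 2.58 and 4.60 in those of CPIP+EA, and Sham replicate 3 overlapped both other groups. The log2 fold change of Tnfsf10 was 0.44 between CPIP and Sham (95% interval -0.07 to 0.95) and 0.45 between CPIP+EA and Sham (95% interval -0.06 to 0.96). Without Sham replicate 3 these values were 0.66 and 0.67, both with an unadjusted p under 0.05, as with the replicate block and, for CPIP+EA, without CPIP+EA replicate 2. Tnfsf13 and Tnfsf13b, the B-cell survival factors APRIL and BAFF, had group means of 6.30 to 7.86 and of 0.577 to 0.797 FPKM with overlapping libraries. Tnfsf9 and Tnfsf14, ligands of activated lymphocytes and antigen-presenting cells, had group means of at most 0.217 and 0.433 FPKM.

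The 4 death-domain receptors among the members were led by Tnfrsf21, which is known for restraining T and B cell responses and for its part in axon pruning and neuronal death. Tnfrsf21 was at 67.1, 58.8 and 52.1 FPKM in the Sham libraries, 79.0, 78.9 and 82.6 in those of CPIP and 87.3, 82.1 and 68.7 in those of CPIP+EA. All CPIP and all CPIP+EA libraries lay above the highest Sham library, with CPIP+EA replicate 3 only just above it. The mean was 59.3 ± 7.52 for Sham, 80.2 ± 2.10 for CPIP and 79.3 ± 9.62 for CPIP+EA (SD, n = 3). That is a 1.35-fold ratio of means for CPIP and a 1.34-fold ratio for CPIP+EA against Sham. Tnfrsf21 had a log2 fold change of 0.44 between CPIP and Sham (SE 0.11, limma adjusted p = 0.158) and 0.42 between CPIP+EA and Sham (SE 0.11, limma adjusted p = 0.134). CPIP+EA and CPIP differed by -0.02, with a 95% interval of -0.27 to 0.22. The unadjusted p against Sham stayed under 0.05 in all 9 fits that left out a library in both comparisons, and over the alternatives its adjusted p ran from 0.0719 to 0.418 for CPIP and from 0.0443 (without CPIP+EA replicate 3) to 0.332 (without Sham replicate 2) for CPIP+EA.

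Markers of neurons and of injured neurons were set beside Tnfrsf21. Within a library, Tnfrsf21 per 1000 FPKM of the 7 summed neuron markers came to 18.9, 18.9 and 16.7 in the Sham libraries, 24.6, 26.1 and 24.3 in those of CPIP and 25.1, 24.4 and 24.7 in those of CPIP+EA. The ratio was chosen after the values were seen, and on it the CPIP and CPIP+EA libraries again lay above all Sham libraries. The lowest neuron marker sum, 2777 FPKM, was in CPIP+EA replicate 3 and the highest, 3550, in Sham replicate 1. The part of neuron content in the Tnfrsf21 values was not tested. At an unadjusted p under 0.05, 1 of the 7 neuron markers was lower in CPIP than in Sham (Rbfox3). Between CPIP+EA and Sham 1 was higher and 2 were lower (among Rbfox3, Prph and Scn10a), so single markers within the sum moved at that level. The sums overlapped, at 3108 to 3550 FPKM for Sham, 3020 to 3396 for CPIP and 2777 to 3475 for CPIP+EA. The injured-neuron markers were also higher in CPIP and CPIP+EA, where all 4 were called, and their part in the level of Tnfrsf21 was not tested.

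The promoter of Tnfrsf21 is shown with those of Tnfaip8l3, the member with the smallest p, and of Tnfaip3, a classical target of NF-kB, as a reference. The windows run from 250 bases before to 50 after the RefSeq gene start and are written 5′ to 3′ on the gene's strand, with the build GRCr8. Capitals mark matches on either strand to the kB motif (GGG and TTTCC with 2 bases between them), the AP-1 motif TGANTCA or the GC box GGGCGG, each also as its reverse complement. The Tnfrsf21 window (chr9:25451274-25451573, minus strand) holds 1 GC box and neither other motif, and the Tnfaip8l3 window (chr8:63351638-63351937, minus strand) holds 4 GC boxes and neither other motif. The Tnfaip3 window (chr1:15543930-15544229, minus strand) holds 2 kB motifs, 1 AP-1 motif and 3 GC boxes, of which a pair overlap each other.
Tnfrsf21: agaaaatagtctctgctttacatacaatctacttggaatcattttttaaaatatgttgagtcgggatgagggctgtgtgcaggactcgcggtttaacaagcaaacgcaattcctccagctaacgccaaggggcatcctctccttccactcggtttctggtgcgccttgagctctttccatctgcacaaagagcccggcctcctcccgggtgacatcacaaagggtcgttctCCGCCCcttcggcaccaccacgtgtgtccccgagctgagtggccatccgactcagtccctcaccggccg
Tnfaip8l3: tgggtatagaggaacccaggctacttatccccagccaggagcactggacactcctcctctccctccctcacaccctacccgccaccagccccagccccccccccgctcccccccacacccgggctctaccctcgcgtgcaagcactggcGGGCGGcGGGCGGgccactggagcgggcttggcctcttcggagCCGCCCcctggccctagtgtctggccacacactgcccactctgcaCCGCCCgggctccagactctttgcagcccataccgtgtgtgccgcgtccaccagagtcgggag
Tnfaip3: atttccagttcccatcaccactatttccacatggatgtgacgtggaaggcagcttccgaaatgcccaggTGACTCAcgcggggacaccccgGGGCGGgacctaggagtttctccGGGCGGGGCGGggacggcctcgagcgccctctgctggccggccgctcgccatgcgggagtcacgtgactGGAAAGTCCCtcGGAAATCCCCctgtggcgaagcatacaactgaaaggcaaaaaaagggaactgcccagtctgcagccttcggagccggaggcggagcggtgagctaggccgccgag

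Of the 39 members, 31 had a RefSeq window, and 1 of them (Tnfrsf22) had a pair, which gave 32 windows. The kB motif was in 2 of the 32 windows (6.25%), those of Tnfaip3 and Tnfrsf4, beside 1.53% of 33469 rat windows. The AP-1 motif was in 4 (12.5%), those of Tnfaip3, Tnfaip6, Tnfrsf1b and Tnfrsf8, beside 7.33%. The GC box was in 18 (56.2%), Tnf and Tnfrsf17 among them, beside 33.1%. A match is a description of the letters and not a bound site.

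Tnfrsf1a, the widely expressed death-domain receptor of TNF, was at 21.2, 21.7 and 20.9 FPKM in the Sham libraries, 19.4, 24.5 and 22.5 in those of CPIP and 23.5, 21.6 and 23.8 in those of CPIP+EA. The CPIP libraries enclosed the range of Sham, and CPIP+EA overlapped Sham at its lowest library. Tnfrsf1a had a log2 fold change of 0.05 between CPIP and Sham (SE 0.09, limma adjusted p = 0.955), 0.06 between CPIP+EA and CPIP (SE 0.09, limma adjusted p = 0.996) and 0.11 between CPIP+EA and Sham (SE 0.09, limma adjusted p = 0.675). The 95% intervals ran from -0.14 to 0.24, from -0.14 to 0.25 and from -0.08 to 0.30. Tnfrsf10b, the receptor of TRAIL, was lowly expressed, with means of 0.550 ± 0.229, 0.590 ± 0.171 and 0.637 ± 0.132 FPKM (SD, n = 3) in Sham, CPIP and CPIP+EA.

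Of the 15 receptors without a death domain, 14 were tested. Tnfrsf1b, the TNF receptor of immune cells and microglia, was at 1.65, 1.90 and 1.83 FPKM in the Sham libraries, 2.11, 2.19 and 2.33 in those of CPIP and 2.06, 1.78 and 2.63 in those of CPIP+EA. Each CPIP library was above each Sham library, while CPIP+EA replicate 2 lay within Sham. The log2 fold change was 0.24 between CPIP and Sham (SE 0.13, limma adjusted p = 0.703), -0.04 between CPIP+EA and CPIP (SE 0.13, limma adjusted p = 0.996) and 0.20 between CPIP+EA and Sham (SE 0.13, limma adjusted p = 0.590). The 95% intervals ran from -0.05 to 0.54, from -0.33 to 0.25 and from -0.09 to 0.50. Between CPIP+EA and Sham, the value of Tnfrsf1b was 0.077 without CPIP+EA replicate 3. Leaving out CPIP+EA replicate 2 instead gave 0.31, with an unadjusted p under 0.05. For CPIP against Sham the unadjusted p of Tnfrsf1b was under 0.05 without CPIP+EA replicate 3 and with the compared groups alone.

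Tnfrsf17, the receptor BCMA of plasma cells, was at 0.08, 0 and 0.08 FPKM in the Sham libraries, 0.32, 0.16 and 0.40 in those of CPIP and 0.16, 0.08 and 0 in those of CPIP+EA. CPIP lay above Sham in every library and overlapped CPIP+EA at 0.16. The CPIP mean was 5.5 times the Sham mean. On the log2 scale Tnfrsf17 differed by 0.51 in CPIP against Sham and by -0.45 in CPIP+EA against CPIP, which are given as a description with no test, since the filter admitted it through the CPIP libraries. The added 0.5 FPKM sets the size of these values, and CPIP against Sham gave 1.36 with 0.1 added and 0.29 with 1 added. All 9 values were whole multiples of 0.081 FPKM within 0.0055 FPKM, namely 1, 0 and 1 for Sham, 4, 2 and 5 for CPIP and 2, 1 and 0 for CPIP+EA, or 16 in all. If a multiple stands for a read, which the files do not state, the change in Tnfrsf17 rests on a handful of reads. Its mean passed the minimum of 0.1 FPKM only through CPIP, whose mean was 0.293, with 0.053 for Sham and 0.080 for CPIP+EA. The summed B-cell markers stood at 2.56 to 11.7 FPKM for Sham, 3.08 to 9.44 for CPIP and 1.74 to 17.0 for CPIP+EA, and their part in the Tnfrsf17 values was not tested.

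The neighboring T-cell costimulatory receptors Tnfrsf4 and Tnfrsf18 showed the same kind of steps, of 0.061 and 0.0605 FPKM with 63 and 32 in all. Tnfrsf4 was at 0.30, 0.49 and 0.43 FPKM in the Sham libraries, 0.43, 0.55 and 0.67 in those of CPIP and 0.24, 0.24 and 0.49 in those of CPIP+EA. Its highest CPIP+EA library overlapped CPIP, and the log2 fold change between these groups was -0.36 (95% interval -0.72 to 0.002). Tnfrsf18 ranged from 0.06 to 0.42 FPKM, with the lowest value in Sham and the highest in CPIP. The unadjusted p of Tnfrsf4 in that comparison was under 0.05 in 8 alternatives, among them the replicate block and the fits without CPIP replicate 1 or CPIP+EA replicate 3. The summed T-cell markers were also low, at 2.65, 1.94 and 3.01 FPKM in the CPIP libraries and 1.91, 1.96 and 2.11 in those of CPIP+EA, and 1 of the 5 (Cd2) was lower in CPIP+EA than in CPIP at an unadjusted p under 0.05. Their part in the Tnfrsf4 values was not tested.

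The most abundant of the other receptors was Tnfrsf12a, the TWEAK receptor known to be induced in injured tissue and to promote neurite growth. Tnfrsf12a was at 4.22, 5.68 and 5.77 FPKM in the Sham libraries, 5.24, 5.93 and 6.09 in those of CPIP and 5.21, 5.80 and 6.98 in those of CPIP+EA. The groups overlapped, and the log2 fold change was 0.14 between CPIP and Sham (95% interval -0.18 to 0.46) and 0.19 between CPIP+EA and Sham (95% interval -0.13 to 0.50). Tnfrsf19, a receptor of embryonic and glial tissue, had group means of 1.45 to 1.6 FPKM. Tnfrsf14, the receptor of Tnfsf14, Tnfrsf26 and Tnfrsf22, which are decoy-like rodent receptors, and Tnfrsf9, a costimulatory receptor, had group means of 0.963 to 1.21, 0.763 to 0.953, 0.197 to 0.367 and 0.337 to 0.407 FPKM. Tnfrsf22 and Tnfrsf26 are related in sequence, and how the counting shared reads between them is not given in the sources used here. The BAFF receptors Tnfrsf13c and Tnfrsf13b had group means of 0.233 to 0.313 and of 0.210 to 0.273 FPKM. Tnfrsf13b was higher in each CPIP+EA library (0.23 to 0.32) than in the CPIP libraries, which were all listed at 0.21.

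Of the 8 TNF-induced proteins, Tnfaip8l3 had the smallest p of any member. It belongs to the Tnfaip8 family and transfers phosphoinositide lipids. Tnfaip8l3 was at 0.36, 0.52 and 0.45 FPKM in the Sham libraries, 0.83, 0.74 and 1.12 in those of CPIP and 1.10, 0.99 and 0.92 in those of CPIP+EA. Every CPIP and CPIP+EA library lay above every Sham library, and the CPIP and CPIP+EA libraries overlapped. Its mean was 0.443 ± 0.080 for Sham, 0.897 ± 0.199 for CPIP and 1.003 ± 0.091 for CPIP+EA (SD, n = 3), which is 2.02-fold and 2.26-fold the Sham mean. On the log2 scale it differed by 0.56 between CPIP and Sham (SE 0.13, limma adjusted p = 0.145) and 0.67 between CPIP+EA and Sham (SE 0.13, limma adjusted p = 0.0508). Both log2 values are smaller than the ratio of means because of the added 0.5 FPKM. Over the alternatives the adjusted p between CPIP+EA and Sham ran from 0.0322 to 0.191. CPIP+EA and CPIP differed by a log2 fold change of 0.11 (95% interval -0.19 to 0.42). The injured-neuron markers differed between the same groups, and their part in this result was not tested.

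The other members of the Tnfaip8 family are given by their means. Tnfaip8, a regulator of apoptosis, had means of 3.38, 3.86 and 4.26 FPKM in Sham, CPIP and CPIP+EA, and Tnfaip8l2, a brake on immune receptor signalling, of 5.46, 6.03 and 6.18. Tnfaip8l1 had means of 2.20, 1.72 and 1.86 FPKM. None of these 3 had an unadjusted p under 0.05 in any comparison, and whether they differ from Tnfaip8l3 was not tested.

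Tnfaip1, an adaptor of a ubiquitin ligase, was the most abundant TNF-induced protein and had the smallest standard error of the 34 members tested. It stood at 26.2, 27.7 and 27.7 FPKM in the Sham libraries, 30.3, 28.1 and 28.3 in those of CPIP and 29.8, 31.0 and 30.3 in those of CPIP+EA. All CPIP and CPIP+EA libraries were above all Sham libraries, by a small amount. CPIP+EA had a log2 fold change of 0.16 against Sham (SE 0.05, limma adjusted p = 0.272), and its unadjusted p was no longer under 0.05 without Sham replicate 1 or CPIP+EA replicate 2. For CPIP against Sham it was 0.09 (95% interval -0.04 to 0.21).

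Tnfaip6, a secreted hyaluronan-binding protein of inflamed tissue, had the largest positive log2 fold change of the members between CPIP and Sham, 0.69. It was at 1.09, 1.05 and 0.89 FPKM in the Sham libraries, 2.49, 1.15 and 2.42 in those of CPIP and 1.74, 0.74 and 2.20 in those of CPIP+EA. CPIP replicate 2 and CPIP+EA replicate 2 were low within their groups, and only CPIP lay wholly above Sham. The 95% interval of that value ran from -0.01 to 1.39 (limma adjusted p = 0.588), and the unadjusted p was under 0.05 without CPIP replicate 2, CPIP+EA replicate 2 or CPIP+EA replicate 3, with the replicate block, with the compared groups alone and with 1 added to FPKM.

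Tnfaip3, a ubiquitin-editing enzyme that limits NF-kB, was at 2.45, 2.34 and 2.17 FPKM in the Sham libraries, 1.59, 2.54 and 1.96 in those of CPIP and 2.25, 2.02 and 2.20 in those of CPIP+EA. The groups overlapped, and CPIP against Sham gave a log2 fold change of -0.17 (95% interval -0.49 to 0.14), which was -0.31 with an unadjusted p under 0.05 without CPIP replicate 2. Tnfaip2, a TNF-induced protein of endothelial and myeloid cells, had the most negative log2 fold change of the members in that comparison, -0.27 (95% interval -0.60 to 0.06), with means of 1.5 ± 0.139 and 1.16 ± 0.218 FPKM (SD, n = 3) in Sham and CPIP.

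**Figure D2:**
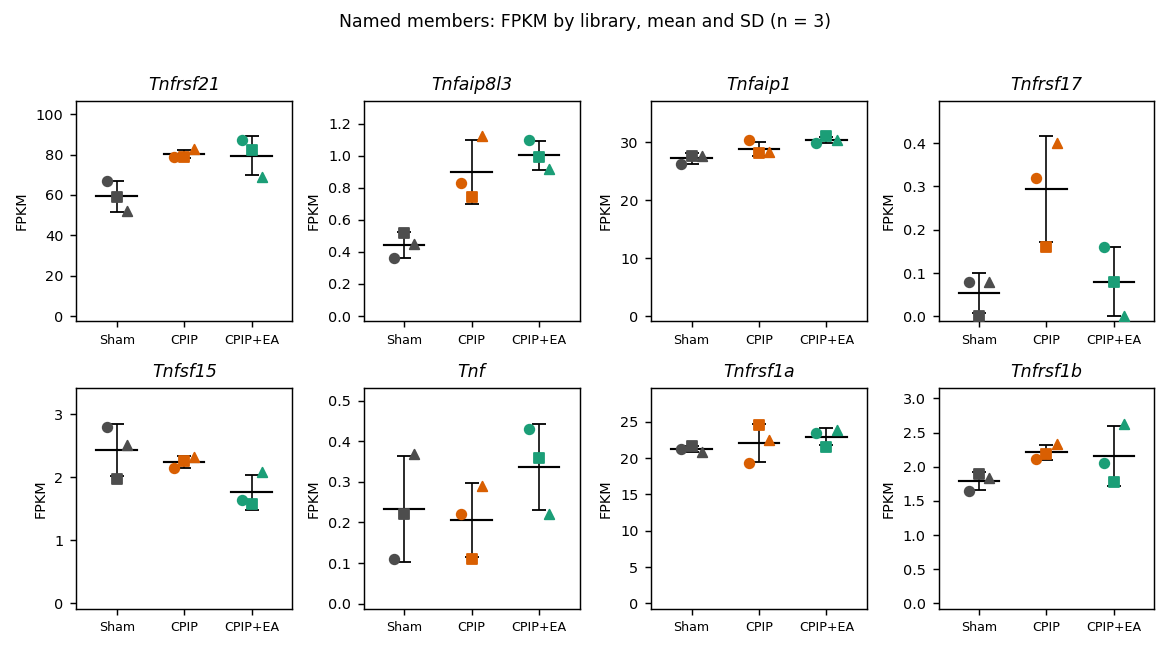
FPKM (linear axes from 0) of the members with an unadjusted p under 0.05 in some comparison and of Tnf, Tnfrsf1a and Tnfrsf1b, in each library of Sham, CPIP and CPIP+EA. Circles, squares and triangles are replicates 1, 2 and 3, the horizontal line is the mean and the bar the SD of 3 libraries, cut at 0. Tnfrsf21 and Tnfaip8l3 lie above Sham in both CPIP groups, Tnfrsf17 is highest in CPIP at levels of at most 0.40 FPKM, and Tnf, Tnfrsf1a and Tnfrsf1b overlap between at least 2 of the groups.

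**Figure D3:**
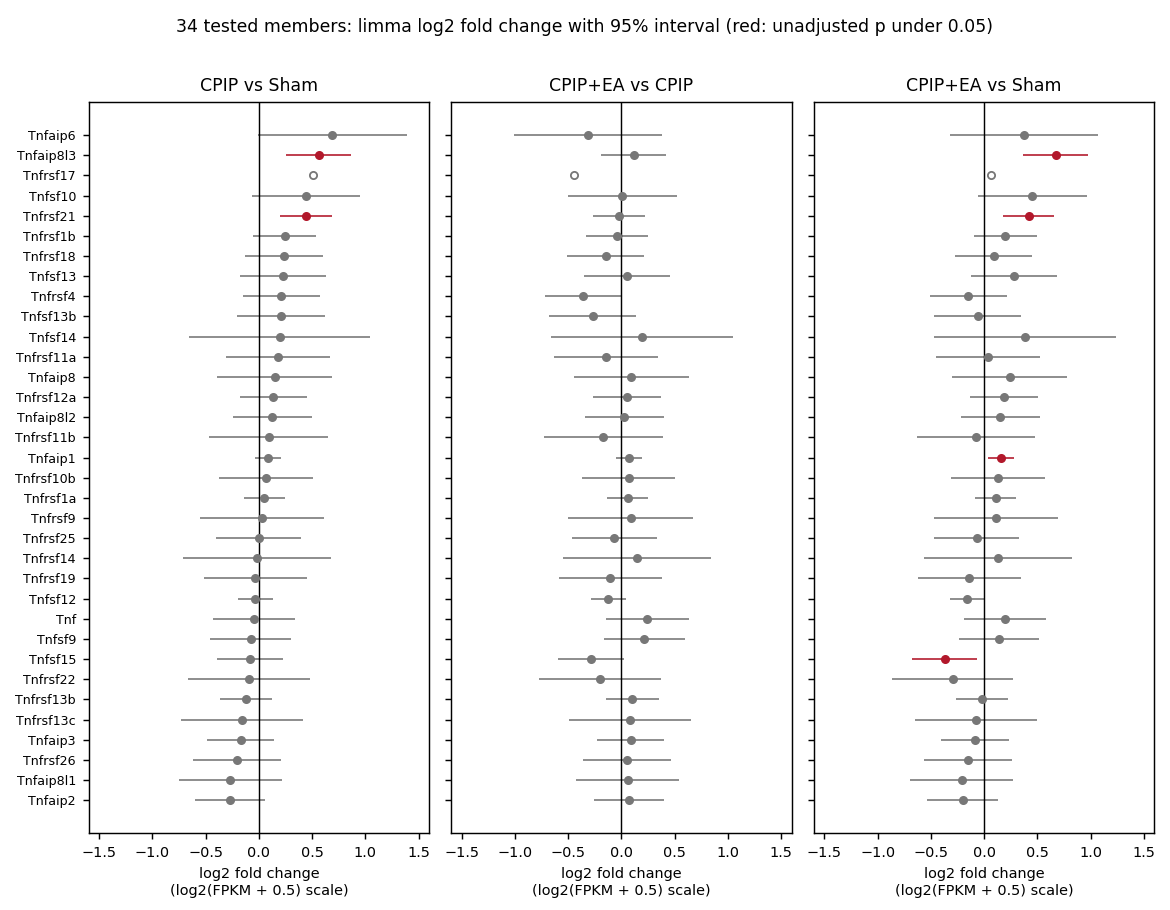
Limma log2 fold changes on the log2(FPKM + 0.5) scale (x axis) with 95% intervals for the 34 tested members (y axis, in the order of CPIP against Sham) in the 3 comparisons. Tnfrsf17, tested through CPIP alone, is an open circle with no interval, and red marks an unadjusted p under 0.05 among the other 33, which holds for 2, 0 and 4 members from left to right, none of them a DEG.

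Among the 33 members with a single highest library, CPIP+EA replicate 3 was that library for 14 (42.4%), beside 20.8% of all genes with a single highest library. Of 29 members with a single lowest library, 0 had it there, beside 14.9% of all genes, and 0 also had it in CPIP replicate 2 (11.0% of genes) or CPIP replicate 3 (7.37%). The count was 13 on a TPM scale and after median centring and 12 after quantile normalization. The 14 comprised 4 ligands (Tnfsf14, Tnfsf9, Tnfsf13 and Tnfsf10), the death receptor Tnfrsf10b, 7 other receptors (Tnfrsf13c, Tnfrsf14, Tnfrsf26, Tnfrsf11a, Tnfrsf13b, Tnfrsf1b and Tnfrsf12a) and the proteins Tnfaip8 and Tnfaip8l2.

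Tnfsf14, the ligand LIGHT of activated T cells and myeloid cells, stood out most in that library, at 1.13 FPKM against at most 0.29 in any other. Its group mean in CPIP+EA, 0.433 ± 0.609 FPKM (SD, n = 3), therefore rests on that library, since the others were at 0 and 0.17. Its receptor Tnfrsf14 was at 2.05 FPKM there and at 0.62 to 1.63 elsewhere, and the B-cell receptor Tnfrsf13c at 0.70 against at most 0.35. Tnfsf13 was at 10.35 FPKM against at most 7.97, and Tnfaip8 at 6.19 against at most 4.88. The remaining 9 were 1.03 to 1.61 times the next highest library.

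Blood cell markers moved with these members. In CPIP+EA replicate 3 the 7 markers of neutrophils and their precursors summed to 605 FPKM against at most 242 elsewhere, and all 7 were highest there. The 4 B-cell markers summed to 17.0 against at most 11.7 and were all highest there, the 6 macrophage markers to 71.7 against at most 57.8 with 3 highest there, and the 4 erythroid markers to 5009 against at most 3310 with 3 highest there. The 4 endothelium markers also had their highest sum there, 27.6 against at most 26.6, with 2 highest there. T-cell markers summed to 2.11 in that library, within the range of the others, with Cd3e at 0 in some library. The part of these cells in the members' values was not tested. Without CPIP+EA replicate 3, Tnfsf12 was lower in CPIP+EA than in Sham at an unadjusted p under 0.05 (limma adjusted p = 0.310). Tnfrsf26 and Tnfrsf13c also reached that level (limma adjusted p = 0.330 and 0.343). Both are among the 14 picked for being highest in the library left out. Leaving it out therefore lowers their CPIP+EA mean by the choice itself, and nothing is concluded for them. In the same fit Tnfsf15 and Tnfrsf4 were lower in CPIP+EA than in CPIP at an unadjusted p under 0.05, with limma adjusted p of 0.672 and 0.618.

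**Figure D4:**
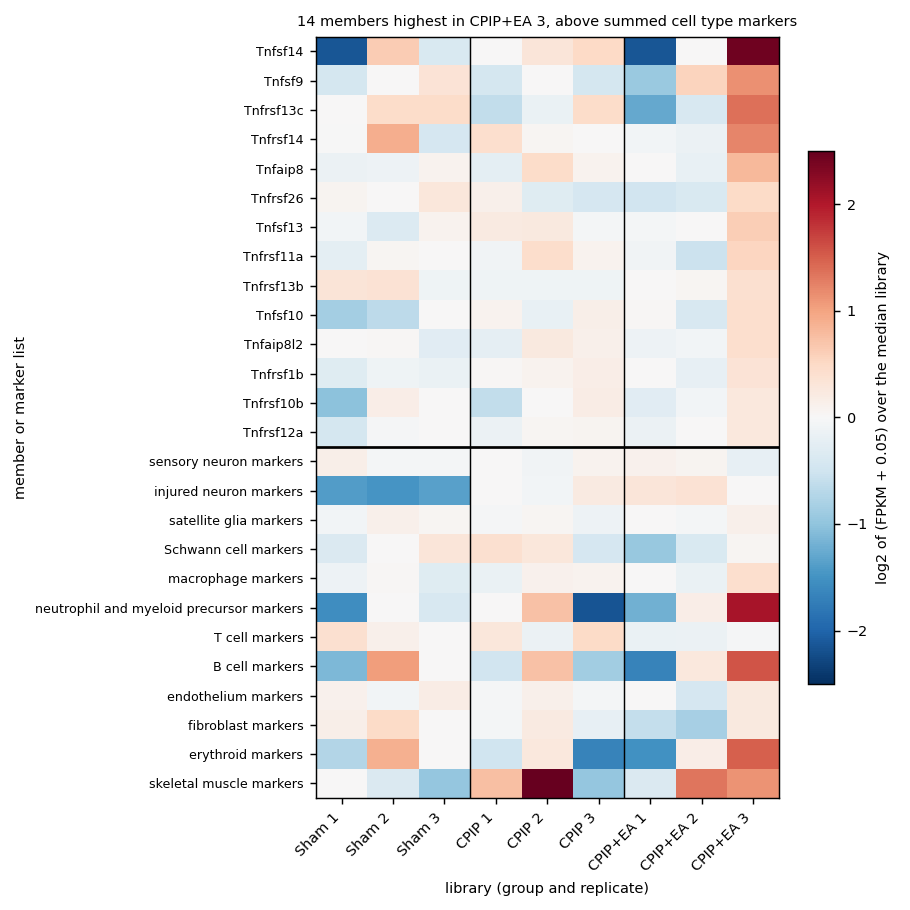
Heat map over the 9 libraries (columns, grouped as Sham, CPIP and CPIP+EA) of the 14 members that were highest in CPIP+EA replicate 3 and, under the black line, of the summed FPKM of each cell type's markers. Color is the log2 of FPKM + 0.05 relative to the median library. The last column is red for all 14 members and for the neutrophil, B-cell and erythroid sums, and blue for the sensory neuron sum. The skeletal muscle and macrophage sums are also above their median library there. So are, to a lesser degree, those of endothelium, fibroblasts, satellite glia and Schwann cells.

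Genes of the same pathways outside the member rule showed 0 DEGs as well. Of 14 superfamily genes with other symbols, 12 were tested and 0 had an unadjusted p under 0.05 in any comparison, which at the shares of all genes given above (8.66%, 4.29% and 12.2%) says little about a list of 12. Among them Ngfr, the low-affinity neurotrophin receptor with a death domain, was the most abundant superfamily gene measured, at 171 ± 16.0, 156 ± 4.83 and 150 ± 21.9 FPKM (SD, n = 3) in Sham, CPIP and CPIP+EA, above Tnfrsf21. Of 21 receptor adaptors and death signalling genes, all tested, the adaptor Traf4 had a positive log2 fold change between CPIP and Sham at an unadjusted p under 0.05 (0.31, limma adjusted p = 0.547), and this 1 gene is 4.76% of the list beside 8.66% of all genes. For CPIP+EA against Sham this held for Traf4 (0.36), the necroptosis kinase Ripk3 (0.49) and the death-domain adaptor Fadd (0.43), with 0 genes negative and limma adjusted p of 0.316, 0.365 and 0.408. That is 14.3% of the list, near the 12.2% of all genes. Ripk3 was at 1.05, 2.08 and 1.56 FPKM in the Sham libraries, 1.6, 1.89 and 2.09 in those of CPIP and 2.07, 2.08 and 2.95 in those of CPIP+EA, so that CPIP+EA and Sham still overlapped.

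Of 17 NF-kB and kinase genes, all tested, the inhibitor Nfkbia, itself a target of NF-kB, differed by 0.67 on the log2 scale between CPIP and Sham (unadjusted p under 0.05, limma adjusted p = 0.517). It was at 8.99, 15.3 and 14.8 FPKM in the Sham libraries, 25.1, 25.5 and 13.3 in those of CPIP and 16.5, 12.2 and 14.5 in those of CPIP+EA, and CPIP replicate 3 lay within Sham. At an unadjusted p under 0.05 between CPIP+EA and Sham, the kinase Ikbkb had a log2 fold change of 0.22, the kinase adaptor Tab3 of -0.22 and the inhibitor Nfkbie of -0.27, with limma adjusted p of 0.316, 0.309 and 0.372. The NF-kB list thus had 5.88% of its genes under 0.05 in the first comparison beside 8.66% of all genes, and 17.6% in the last beside 12.2%. In these lists 0 of 12, 21 and 17 genes reached that level for CPIP+EA against CPIP, beside 4.29% of all genes. The medians of the 3 lists between CPIP and Sham were -0.01, 0.02 and 0.01 on the log2 scale, beside -0.0064 for all genes tested. Between CPIP+EA and CPIP they were -0.11, 0.04 and -0.04, beside 0.012 for all genes. Between CPIP+EA and Sham they were -0.17, 0.14 and -0.01, beside 0.0014.

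Several superfamily genes lie next to each other in the rat genome. By RefSeq's order of protein-coding genes on GRCr8, the neighboring pairs of members were Tnfrsf26 and Tnfrsf22 on chromosome 1, Tnfrsf4 and Tnfrsf18, Tnfrsf1b and Tnfrsf8, and Tnfsf15 and Tnfsf8 on chromosome 5, Tnfsf13 and Tnfsf12 on chromosome 10, and Tnfsf4 and Tnfsf18 on chromosome 13. Tnf lies between Lta and Ltb on chromosome 20. Some neighbors stood at unlike levels. The lymphotoxin gene Ltb had means of 1.47, 2.11 and 2.35 FPKM and Lta of 0.050, 0.063 and 0.047, beside Tnf at 0.233, 0.207 and 0.337 in Sham, CPIP and CPIP+EA. Tnfsf15 and Tnfsf8 likewise differed, with highest values of 2.80 and 0.18 FPKM. Tnfsf4 and Tnfsf18, in contrast, were both near the floor, with means over all libraries of 0.059 and 0.062 FPKM.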

How the data were processed

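Total RNA of ipsilateral L4–6 DRGs was sequenced as 50-base single-end reads in 9 libraries, 3 per group. The authors removed low-quality reads with SOAPnuke, and the deposited table gives FPKM rounded to 2 decimals. The aligner, genome build and annotation are not given in the sources used here. The authors also deposited log2 ratios for pairs of groups and their P-values and Q-values, which were not used. Groups and replicate numbers came from the repository's sample names, and 0 FPKM columns were left unassigned.

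Genes averaging at least 0.1 FPKM were analysed as log2(FPKM + 0.5). A linear model of the 3 groups without covariates was fitted with limma 3.58.1 (R 4.3.3), with moderation along the mean-variance trend, after it had been tested on simulated data. Two-sided p-values were adjusted over all genes tested after Benjamini and Hochberg. Tables and figures used Python 3.11.15, numpy 2.4.6, pandas 2.3.3 and matplotlib 3.10.9. FPKM summed to 445647 to 482940 per library, and the read depth behind single values is unknown.

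The members, the marker lists and the pathway lists were chosen with earlier results of these data known. Every member is given with its level, and test statistics for members with an unadjusted p under 0.05, other than Tnfrsf17, and for Tnf, Tnfrsf1a and Tnfrsf1b. Other intervals and the statistics of Tnfaip6 were added after values were seen. All 39 members were found in RefSeq by gene ID. Other settings were 0.1 or 1 as the added value, a minimum mean of 0 or 1 FPKM, quantile normalization, TPM, median centring, no trend, a fit of the compared groups alone, a replicate block, an adjusted p under 0.05 without a minimum fold, and each library left out.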

Additional observations from a re-analysis of the deposited data

How the results depend on the processing

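The number of members called DEGs stayed at 0 in all 3 comparisons under each of the 19 alternative settings. It was also 0 at an adjusted p under 0.05 without a minimum fold in the fit as reported. In alternative fits the limma adjusted p between CPIP+EA and Sham was under 0.05 for Tnfaip8l3 without the trend (0.0322) and without CPIP replicate 3 (0.0414), and for Tnfrsf21 without CPIP+EA replicate 3 (0.0443). The number at an unadjusted p under 0.05 moved more. Between CPIP and Sham it was 3, and became 1 with a mean FPKM of at least 1, 5 when only the 2 groups were fitted, and 3 to 5 when a library was left out. Between CPIP+EA and CPIP it was 1, and became 2 without a filter, with quantile normalization, on a TPM scale and with median centring, 0 with a mean FPKM of at least 1, 3 without the trend, 0 when Tnfrsf17, which was tested through CPIP alone, was left out (chosen after seeing the data), and 0 to 2 when a library was left out. Between CPIP+EA and Sham it was 4, and 3 to 7 when a library was left out. With the replicate number as a block the counts were 5, 2 and 5 in the order above. Same-numbered libraries had correlated deviations with r from -0.24 to 0.30, 2 of 9 pairs were over 0.1 and 2 of 9 libraries correlated best with their own number, so the numbers were not taken as pairs. Members whose groups did not overlap between CPIP+EA and CPIP numbered 4 after quantile normalization against 2 as deposited, an alternative chosen after seeing the data. The shares of all genes under the alternative settings, the block and quantile normalization included, are not given here. A move of the member counts can therefore not be told apart from a move of all genes. The cause of these moves was not tested.

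The log2 fold changes of TNF and its receptors near 0 changed sign when a library was left out. Tnf between CPIP and Sham ran from -0.17 to 0.084, with 0.084 without Sham replicate 3 and 0.056 without CPIP replicate 2. Tnfrsf1a between CPIP and Sham ran from -0.025 (without CPIP replicate 2) to 0.14, and between CPIP+EA and CPIP from -0.034 (without CPIP replicate 1) to 0.13. Tnfrsf1b between CPIP+EA and CPIP ran from -0.16 to 0.064 (without CPIP+EA replicate 2). FPKM given with 2 decimals limit the precision of members under about 0.1 FPKM, and the reads behind them are unknown.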
